A study of Rattus norvegicus with 4 samples.

Results

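The matrix metalloproteinases and tissue inhibitors of metalloproteinases described here are 9 rat genes, chosen by gene family from the 20174 genes on the array. They comprise 6 proteases, Mmp10 (ENSRNOG00000032832), Mmp3 (ENSRNOG00000032626), Mmp13 (ENSRNOG00000008478), Mmp9 (ENSRNOG00000017539), Mmp2 (ENSRNOG00000016695) and Mmp14 (ENSRNOG00000010947), and 3 inhibitors, Timp1 (ENSRNOG00000010208), Timp2 (ENSRNOG00000003148) and Timp3 (ENSRNOG00000004303). All 9 were found on the array, each as 1 probe, and none was marked as a poor spot. The family was picked with earlier results of these arrays known, among them the large IPTG differences of Mmp10 and Mmp3, so every value below is a description and carries no test. Further MMP and TIMP genes may be on the array under identifiers that were not matched to names here.

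The cells were Rat-1·RasValA1, a line of rat embryonic fibroblasts in which the activated allele HrasG12V is driven by an IPTG-inducible promoter. They were placed in serum-free DMEM with 0.1% bovine serum albumin and, for 24 h, received 5 mM IPTG with 3 µM ZnCl2, 5 mM IPTG alone, 3 µM ZnCl2 alone, or no addition. All 4 conditions carried the inducible allele, so an effect of IPTG itself and an effect of HrasG12V cannot be told apart. The Hras probe and markers of fibroblasts or other cells were not matched to identifiers, so induction of the allele and the identity of the cells were not checked. In bulk RNA, fewer cells of a type and less RNA per cell cannot be told apart. Each condition was measured on 1 array, and the pairs of arrays without and with zinc give 2 IPTG differences that share no array.

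MMPs are zinc-dependent endopeptidases that cleave extracellular matrix. They are made as inactive precursors, in which a cysteine of the propeptide holds the catalytic zinc, and become active when the propeptide is cut. TIMPs bind the active site of MMPs and block it. In fibroblasts, transcription of stromelysin and collagenase genes is known to respond to Ras and MAP kinase signalling through AP-1, the dimer of Fos and Jun proteins.

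On each array, the authors listed a value for 66.7% to 72.4% of the gene probes. One library differed somewhat from the rest: on the array that received IPTG together with zinc, 24.0% of the spots that carry no probe lay above the limit set by the blank spots, against 16.6% to 17.9% on the other arrays. Values below are normalized signals: spot intensity less the mean of the blank spots, with 50 added, quantile normalized between arrays. A value of 51.0 is therefore the lowest possible, and the added 50 makes folds of dim probes too small. The SD of a difference, derived from the spread of repeat spots of bright positive controls within arrays, was 0.22 on the log2 scale. It covers error within an array, not between arrays or cultures. Before normalization, Positive Control 2 averaged 12386 and 13266 on the IPTG arrays with and without zinc, against 9066 and 8898 on the others. For Positive Control 1 the means were 15251 and 13883, against 13427 and 15095.

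With IPTG, 4 of the 8 members that could be compared were higher by 2-fold or more in each pair: the stromelysins Mmp10 and Mmp3, the collagenase Mmp13 and the inhibitor Timp1. Of all 13972 probes compared, 1.37% met that limit. No member was at least 2-fold lower in both pairs, where 1.4% of all probes were. In the pair with zinc, 4 members were higher (2.17% of all probes) and 0 lower (2.33%). In the pair without zinc, 4 were higher (3.56%) and 1, Timp2, was lower (3.97%). Since the IPTG difference was known when the members were chosen, these shares are printed as background only. The median log2 IPTG difference over the 8 members was 0.92 with zinc and 0.75 without, beside 0.00 and 0.01 over all probes compared. Both member medians lie midway between Timp1 and Mmp9, whose value is set by the floor, so they describe the list and support nothing.

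The 2 IPTG arrays did not overlap with the 2 others for any of the 8 members: both were higher for Mmp10, Mmp3, Mmp13, Mmp9 and Timp1 and both lower for Mmp2, Mmp14 and Timp2. Mmp9 entered the comparison only through the IPTG arrays, so its separation was fixed by the filter. Mmp2 entered only through the arrays without IPTG and was below the limit with IPTG alone, so its separation adds nothing either. Such a separation was common, since 30.2% of all probes compared were higher and 28.5% lower on both IPTG arrays, so it says little without the size of the difference. For Mmp14 the arrays overlapped in the authors' deposited table. There the median log2 IPTG difference over all probes compared was itself 0.29 with zinc and 0.34 without. Folds from that table are given below without correction for this shift, which enlarges higher values and shrinks lower ones.

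**Figure D1:**
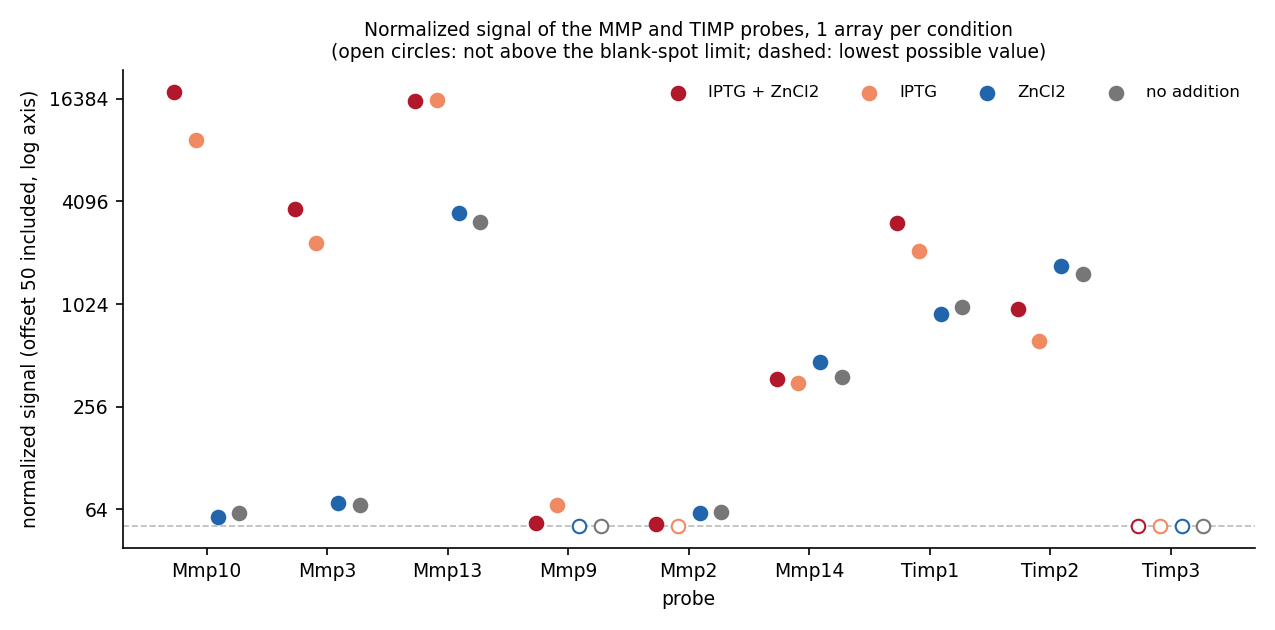
Normalized signal (log axis, offset of 50 included) of the 9 probes, with 1 point per array, in the order IPTG with ZnCl2, IPTG, ZnCl2 and no addition. Mmp10, Mmp3, Mmp13 and Timp1 lie higher on both IPTG arrays, Timp2 lies lower on both, and Timp3 (open circles) is not above the blank-spot limit on any array.

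The promoters of the 3 proteases that were higher with IPTG are shown with that of Timp1. The 3 share an exact string, TGAGTCA or its reverse complement, that Timp1 lacks in this window. Variants of that string were not searched, so its absence does not mean that Timp1 lacks an AP-1 site. Sequences run from 250 bases before to 50 bases after the annotated start in RefSeq's GRCr8 tables, 5′ to 3′, and capitals mark the AP-1 motif TGAGTCA on either strand (TGACTCA on the other strand) and the TATA motif TATAAA on the coding strand.
Mmp10, chr8:12974457-12974756, plus strand: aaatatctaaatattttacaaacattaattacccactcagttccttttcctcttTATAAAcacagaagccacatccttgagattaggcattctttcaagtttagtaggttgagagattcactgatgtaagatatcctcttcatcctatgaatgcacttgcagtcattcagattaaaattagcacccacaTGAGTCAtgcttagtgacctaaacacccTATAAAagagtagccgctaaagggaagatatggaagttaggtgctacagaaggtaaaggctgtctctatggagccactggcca
Mmp3, chr8:12925031-12925330, plus strand: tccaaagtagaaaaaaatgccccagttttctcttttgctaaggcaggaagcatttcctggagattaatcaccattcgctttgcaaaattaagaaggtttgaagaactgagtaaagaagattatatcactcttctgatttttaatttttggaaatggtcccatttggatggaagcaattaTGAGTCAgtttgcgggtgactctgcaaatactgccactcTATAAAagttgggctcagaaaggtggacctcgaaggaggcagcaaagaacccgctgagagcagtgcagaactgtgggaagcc
Mmp13, chr8:12782579-12782878, plus strand: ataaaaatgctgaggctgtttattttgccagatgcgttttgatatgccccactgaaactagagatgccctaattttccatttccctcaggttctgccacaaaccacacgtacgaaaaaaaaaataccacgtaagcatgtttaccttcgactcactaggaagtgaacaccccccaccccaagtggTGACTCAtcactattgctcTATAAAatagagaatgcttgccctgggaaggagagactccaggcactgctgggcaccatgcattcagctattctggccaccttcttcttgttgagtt
Timp1, chrX:3771073-3771372, minus strand: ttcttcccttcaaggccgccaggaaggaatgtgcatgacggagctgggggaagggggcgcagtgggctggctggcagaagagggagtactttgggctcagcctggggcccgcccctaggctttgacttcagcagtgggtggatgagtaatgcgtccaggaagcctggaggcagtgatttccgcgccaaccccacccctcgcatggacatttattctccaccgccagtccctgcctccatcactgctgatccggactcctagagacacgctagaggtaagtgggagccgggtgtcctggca

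Counted from the start, with -1 as the base just before it, the AP-1 motif began at -61 in Mmp10, -71 in Mmp3 and -66 in Mmp13. Promoter sequences were found for 6 of the 9 members, and the exact motif occurred in these 3 and not in those of Timp1, Timp2 and Timp3. Over all 33469 rat promoters of this length, 4.63% hold it. The TATA motif began at -33 in Mmp10, with a further match at -196, at -32 in Mmp3 and at -47 in Mmp13. Of all promoters, 8.8% hold at least 1 match. The Ets-type motif AGGAAG, on either strand, had 2 matches in Timp1, 1 each in Mmp3 and Mmp13 and 0 in Mmp10, with 34.5% of all promoters holding it. A match is a string of letters and was not tested as a binding site. Aligned end to end, the promoters of Mmp3 and Mmp10 were 69.6% identical over 260 aligned bases, while Mmp13 matched them at 61.9% and 61.1%. Positions opposite a gap were left out, with 80 gap bases for Mmp3 and Mmp10 and 86 and 96 for Mmp13 with each. For comparison, Timp1 and Mmp10, from different gene families, aligned at 58.6% by the same method. Pairs of a protease and an inhibitor ran from 49.8% to 59.6%, and Timp3 and Timp1 aligned at 63.3%, above the values of Mmp13.

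The 3 genes also lie in the same run of MMP genes on rat chromosome 8. In GRCr8, Mmp13 is followed by Mmp12, Mmp3 lies between Mmp1b and Mmp1, and Mmp10 lies between Mmp1 and Mmp8. Mmp9, Mmp2, Mmp14 and the TIMPs are on chromosomes 3, 19, 15, X, 10 and 7, with no other MMP beside them. Array identifiers of the intervening genes were not matched here, so their levels are not analysed here.

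Mmp10, stromelysin 2, cleaves proteoglycans, fibronectin and other matrix proteins and can activate other pro-MMPs. Its normalized signal was 17949 with IPTG and zinc and 9391 with IPTG alone, against 57.8 with zinc alone and 61.3 without additions. Both IPTG arrays thus stood far above both others, which lay near the detection limit. The difference was 311-fold in the pair with zinc and 153-fold in the pair without, a log2 difference of 8.28 and 7.26, the highest of all 13972 probes in each pair. In the authors' deposited table, which has no offset, its intensity was 8678 and 5501 on the IPTG arrays with and without zinc, against 3.05 with zinc alone and 5.22 without additions. That gives 2847-fold and 1054-fold. The size depends on the processing. An offset of 16, which acts on the dim arrays, gave 753-fold and 343-fold. The local background, which takes most from the bright arrays, gave 125-fold and 96.0-fold.

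Mmp3, stromelysin 1, has similar substrates and also activates pro-collagenases. Its normalized signal was 3707 with IPTG and zinc and 2333 with IPTG alone, against 69.6 with zinc alone and 68.0 without additions. Both arrays without IPTG lay near the detection limit. The difference was 53.3-fold with zinc and 34.3-fold without, with rank 2 with zinc and rank 3 without among the probes compared. In the authors' deposited table it was 226-fold and 172-fold. Mmp3 and Mmp10 are close paralogs. Probe sequences were not analysed here, so cross-hybridisation between them was not tested.

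Mmp13, collagenase 3, is the main interstitial collagenase of rodents and cleaves fibrillar collagen. Unlike the stromelysins it was well detected without IPTG. Its normalized signal was 15902 with IPTG and zinc and 16162 with IPTG alone, against 3509 with zinc alone and 3098 without additions. The IPTG arrays were again above both others, by 4.53-fold with zinc and 5.22-fold without. The authors' deposited table gave 5.89-fold and 6.54-fold, and the local background 2.38-fold and 3.11-fold. Its spot was well below the brightest gene probe on the IPTG arrays (17153 against 62629 with zinc, and 15841 against 65535 without).

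**Figure D2:**
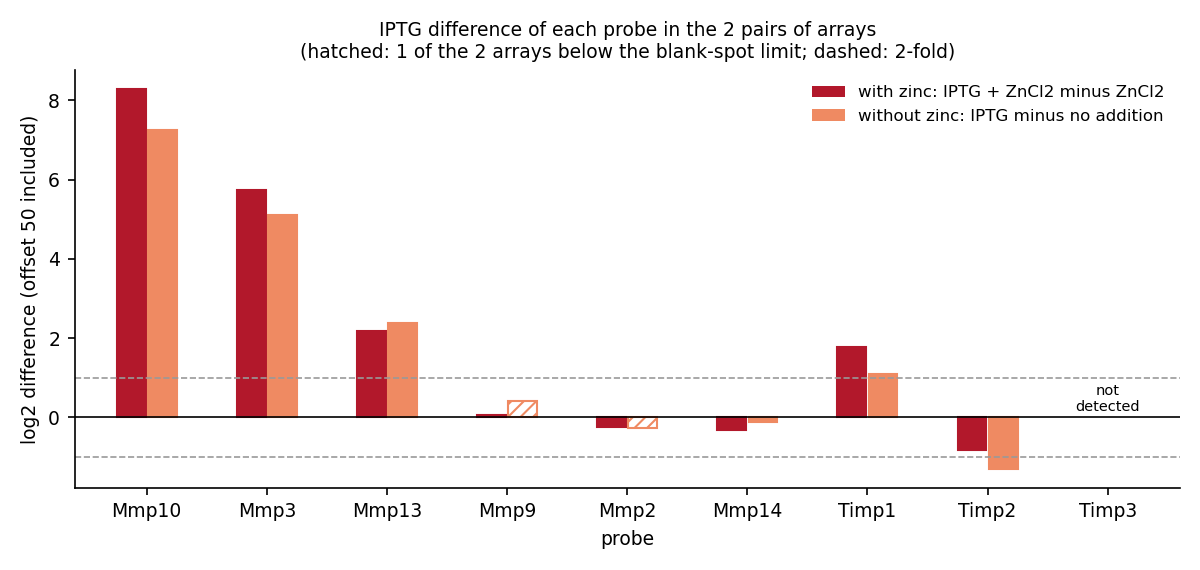
Log2 IPTG difference of each probe (offset of 50 included) in the pair with zinc (left bar) and the pair without zinc (right bar), with hatching where 1 of the 2 arrays was below the blank-spot limit. Mmp10, Mmp3, Mmp13 and Timp1 pass the dashed 2-fold line upward in both pairs, and Timp2 passes it downward without zinc only (-1.30, against -0.83 with zinc).

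The gelatinases Mmp9 and Mmp2, which degrade denatured collagen and basement membrane collagen, were close to the detection limit throughout. Mmp9 was at 53.0 with IPTG and zinc and 67.4 with IPTG alone, and it was not above the limit with zinc alone or without additions. In both pairs its difference is therefore a bound, at least 1.01-fold higher with zinc and at least 1.30-fold higher without. In the authors' deposited table its intensity was 1.54 with IPTG and zinc and 9.67 with IPTG alone, and it was not listed on the other arrays, whose lowest listed values give bounds of at least 1.98-fold and 11.5-fold. On the array with IPTG and zinc, 7.34% of the 5273 spots that carry no probe were at least as bright as Mmp9, and on that with IPTG alone 0.0379% were. Detection of Mmp9 was thus clear on the array with IPTG alone and weak on the array with both. It entered the comparison only through the IPTG arrays.

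Mmp2 ran the other way. It was at 52.1 with IPTG and zinc and not above the limit with IPTG alone, against 61.3 with zinc alone and 61.9 without additions. This is 1.18-fold lower with zinc and at least 1.21-fold lower without, both under the 2-fold limit. Mmp2 entered the comparison only through the arrays without IPTG. Without the offset, in the authors' deposited table, it was 4.06-fold lower with zinc and at least 5.92-fold lower without. Of the spots without a probe, 16.4% were at least as bright as Mmp2 on the array with IPTG and zinc and 23.4% on that with IPTG alone, beside 0.0569% with zinc alone and 0.247% without additions.

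Mmp14, the membrane-type MMP that activates pro-Mmp2 at the cell surface together with Timp2, was detected everywhere and differed little. Its normalized signal was 373 with IPTG and zinc and 352 with IPTG alone, against 467 with zinc alone and 382 without additions. It was 1.25-fold lower with IPTG in the pair with zinc and 1.08-fold lower in the pair without. The sign of the second value turned in the authors' deposited table, where Mmp14 was 1.13-fold higher. That is a log2 difference of 0.18, beside a median of 0.34 over all probes compared in that table.

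Timp1 is a secreted inhibitor of most MMPs. It was at 3076 with IPTG and zinc and 2107 with IPTG alone, against 897 with zinc alone and 983 without additions, so the IPTG arrays lay above both others. The difference was 3.43-fold with zinc and 2.14-fold without. It rests on the choice of background: with the local background it was 1.93-fold and 1.18-fold, under the limit in both pairs. The authors' deposited table gave 4.61-fold and 2.97-fold.

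Timp2, which inhibits MMPs and also bridges Mmp14 and pro-Mmp2, was lower with IPTG. Its normalized signal was 964 with IPTG and zinc and 624 with IPTG alone, against 1709 with zinc alone and 1535 without additions. Both IPTG arrays were below both others, by 1.77-fold with zinc and 2.46-fold without. With the local background it was 2.62-fold and 3.17-fold lower and met the limit in both pairs, while the authors' deposited table gave 1.38-fold and 1.98-fold. In that table the median log2 difference over all probes compared was 0.29 and 0.34 upward, so these 2 folds are understated. Timp3, the inhibitor that binds to the matrix, was not above the limit on any of the 4 arrays, and no difference was computed for it.

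**Figure D3:**
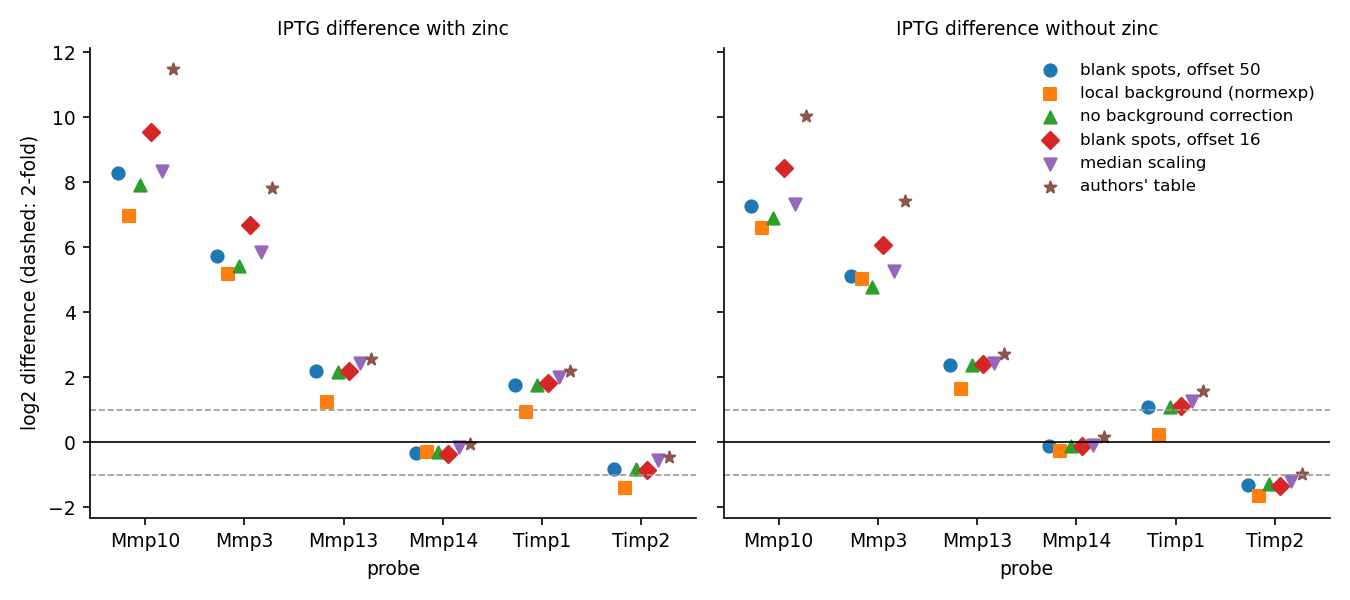
Log2 IPTG difference of the 6 members detected on all 4 arrays, in the pair with zinc (left panel) and the pair without (right panel), under 6 ways of processing the intensities. The order of the members is shared by all settings at the top, Mmp10 above Mmp3 above Mmp13, while Timp1 lies below the 2-fold line only with the local background (0.95 with zinc and 0.24 without).

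Local background was not used for the values above because, over all gene probes, it was higher where the spot itself was brighter. The correlation of the 2 on the log2 scale was 0.94 to 0.95 on each array. For Mmp10 on the array with IPTG and zinc, the local background was 10933 at a spot intensity of 18921, while the median local background of the 8 spots around it was 120. For Timp1 it was 59.9% of the spot intensity with IPTG and zinc and 68.6% with IPTG alone, against 27.5% with zinc alone and 35.5% without additions. Timp2 did not follow its own intensity across arrays. Its spot was dimmer with IPTG, yet the share was 56.1% with IPTG and zinc and 53.6% with IPTG alone. With zinc alone it was 23.1%, and 24.0% without additions. For Mmp14 the local background was 186 at an intensity of 377 with IPTG alone, against 88.1 at 444 with zinc alone. Over all gene probes with an intensity above 1000, the local background, less its median at the blank spots, had a median share of the spot intensity of 35.3% and 37.2% on the IPTG arrays with and without zinc, against 29.0% and 27.7% on the others. Subtracting it thus takes more from spots on the IPTG arrays.

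**Figure D4:**
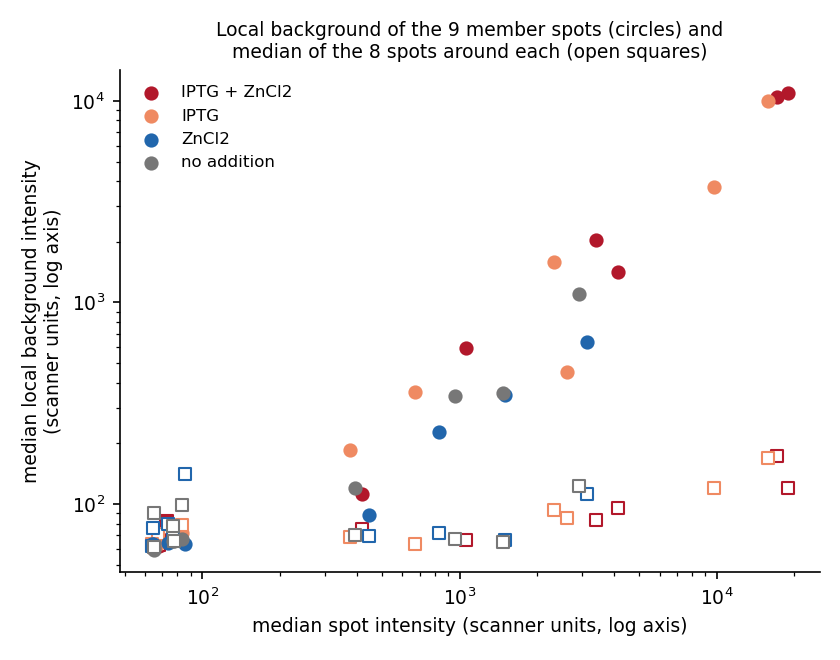
Local background against spot intensity (scanner units, both log axes) for the 9 member spots (filled circles) and, at the same intensity, the median local background of the 8 spots around each (open squares). The circles climb with spot intensity up to 10933 for Mmp10 with IPTG and ZnCl2, while the squares stay at or below 172.

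The place on the array was also looked at. Mmp10, Mmp3, Mmp13 and Mmp14 all sat at column 44, row 7 of their blocks. The 13 other comparable probes at that place had a median log2 IPTG difference of 0.28 with zinc and 0.04 without, far below those of Mmp10, Mmp3 and Mmp13. Their median log2 zinc difference with IPTG was 0.18, beside -0.01 over all probes compared. The members there had 0.93 (Mmp10), 0.67 (Mmp3), -0.02 (Mmp13) and 0.08 (Mmp14). A share of the place in the zinc differences was not tested. The gene probes directly around Mmp10 had medians of 0.07 and -0.10, those around Mmp3 -0.13 and 0.28, and those around Timp1 -0.03 and 0.13.

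Zinc was followed by smaller differences. In cells with IPTG, 0 of the 7 members compared were at least 2-fold apart, where 2.73% of 13667 probes were, and in cells without IPTG also 0 (0.0805%). The largest was that of Mmp10 with IPTG, 1.91-fold higher with zinc (log2 0.93), and 3.29% of all probes compared lay at least as far from 0. With the local background it was 1.28-fold, and the authors' deposited table gave 1.58-fold. The order rests on the background: with the local background Timp1 was the largest in cells with IPTG, at 1.75-fold. Timp2 and Mmp14 were then at 1.37-fold and Mmp3 at 1.22-fold. Mmp3 was 1.59-fold higher, Timp2 1.54-fold higher and Timp1 1.46-fold higher with zinc in cells with IPTG, and 7.61%, 8.79% and 11.4% of all probes lay at least as far from 0. Of the members detected on both arrays with IPTG, Mmp10 alone lay outside the range that held 95% of probes, a log2 difference of 0.79 to either side. That range includes dim probes, whose differences the offset compresses. Over the brightest 25% of the probes compared, by mean level, it reached 0.98, and Mmp10 lay within it. The median over the 7 members was 0.55, which is the value of Timp1, beside -0.01 over all probes. It describes the list and supports nothing, since Mmp13 had -0.02, Mmp14 0.08 and Mmp2, below the limit with IPTG alone, 0.03.

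Without IPTG the zinc differences of the same genes were smaller on the scale with the offset. Mmp10 differed by a log2 value of -0.08, Mmp3 by 0.03, Timp1 by -0.13 and Timp2 by 0.16, all within 0.22, the SD of repeat control spots. Those control spots were bright, while Mmp10 and Mmp3 were dim here and their differences were compressed by the offset. In the authors' deposited table, which has no offset, the values were -0.78 for Mmp10, -0.02 for Mmp3, -0.37 for Timp1 and -0.10 for Timp2. With IPTG, Mmp10 had 0.66 and Timp1 0.27 there. The median zinc difference over all probes compared was itself -0.20 without IPTG and -0.24 with IPTG in that table. Distances from 0 in it therefore cannot be compared directly. Mmp14 was 1.22-fold higher with zinc, a log2 difference of 0.29 that exceeded that SD, and 6.72% of all probes compared lay at least as far from 0. It was 1.40-fold higher with the local background and 1.06-fold higher in the authors' deposited table. Mmp9, with its weak signal, was 1.27-fold lower with zinc in IPTG cells, and 6.26-fold lower in the authors' deposited table without offset. It was not among the 7 compared, since it was below the limit without IPTG.

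**Figure D5:**
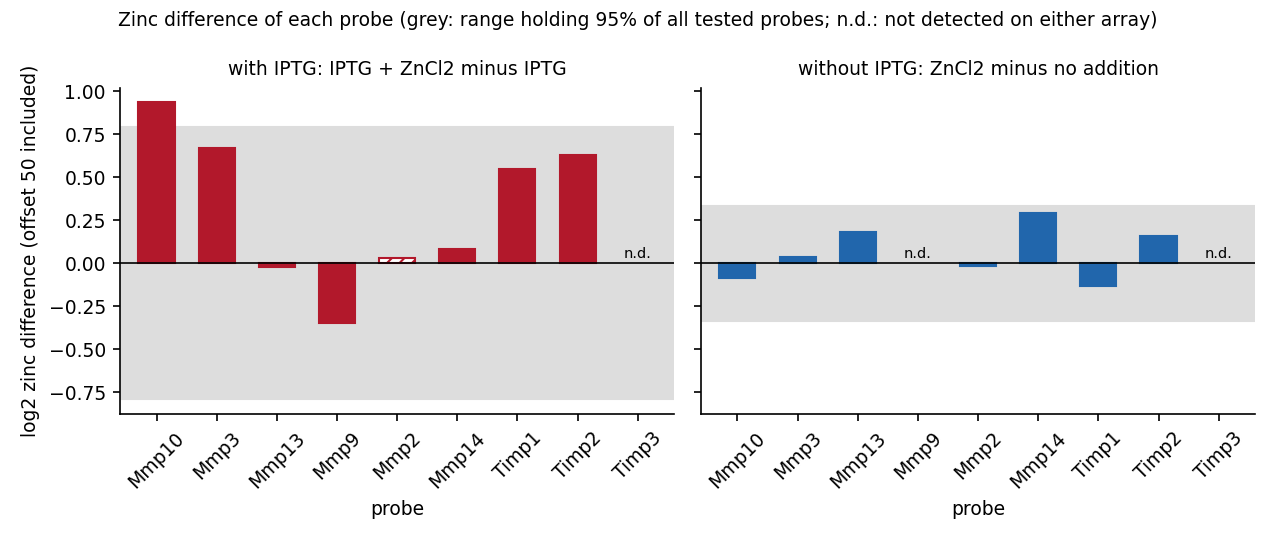
Log2 zinc difference of each probe (offset of 50 included) in cells with IPTG (left panel) and without (right panel), with a grey band holding 95% of all probes compared. Mmp10 with IPTG, at 0.93, is the 1 bar outside its band. Over the brightest 25% of probes the range with IPTG reached 0.98.

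The dependence of the IPTG difference on zinc was measured as the log2 IPTG difference with zinc minus that without. It was at least 4-fold for 0 of 8 members, against 0.189% of 14254 probes. Mmp10 had 1.02, Timp1 0.68, Mmp3 0.63 and Timp2 0.47, beside an SD from control spots of 0.31. On these arrays the IPTG increase of Mmp10, Mmp3 and Timp1 was thus larger with zinc, and the decrease of Timp2 was smaller. Such values were not rare. Of the 14254 probes, 3.8% lay at least as far from 0 as Mmp10, 9.54% as Timp1, 11.1% as Mmp3 and 18.1% as Timp2. With the local background the value of Mmp10 was 0.38 and that of Mmp3 0.14, while that of Timp1 was 0.71. Mmp13 had -0.20 and Mmp14 -0.21, within that SD. With 1 array per condition, a role of zinc and a difference of a single array or culture cannot be told apart, and the array with both additions is the one that stood apart in its spots without a probe.

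Profiles over the 4 arrays were compared by their Euclidean distance after each probe's mean log2 value was subtracted. Mmp10 was nearest to Mmp3, at 2.36, and the nearest of 14246 probes outside the family was ENSRNOG00000002460, at 3.36. That probe was also the nearest to Mmp3, at 1.03, and its own log2 IPTG difference was 4.53 with zinc and 4.39 without. Mmp13 had its nearest probe at 0.17. Timp1 was nearest to ENSRNOG00000003546, at 0.08, with IPTG differences of 1.87 and 1.13. No table used here pairs these identifiers with gene names.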

How the data were processed

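Total RNA from 4 cultures of rat cells was hybridised to 4 single-colour arrays, 1 per condition. Amplified amino allyl RNA was labelled with Cy5, per the labels' protocols. Scans were made at 635 nm and at 3 gains related by least squares, per the file headers. The deposited scanner files hold, for each spot, the median intensity and that of its surroundings, with no scaling between arrays. The authors' deposited table holds normalized intensities. Found from the values, each column is a straight line of the scanner signal that reaches 0 at the mean of the blank spots (lowest and highest 5% left out) and has a median of 25.0 over its listed probes. Its empty cells are the probes below the blank mean plus 2 SD, except for 2 to 5 probes per array.

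From the scanner files, the blank mean was subtracted (floor 1), 50 was added, log2 was taken and the 20166 gene probes not marked as poor spots were quantile normalized (limma 3.58.1, R 4.3.3). A probe was detected above the blank mean plus 2 SD. Probes detected on both arrays of either level of a factor were compared, and for the dependence on zinc those detected on at least 2 arrays. A bound sets the detected array against the higher of the undetected value and the lowest detected signal on the other array. The steps were checked on simulated data.

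The members, lists and settings were chosen with earlier results of these data known. All 9 members are named, with the nearest profiles as the rule for other probes. Names of the members came with the list; 0 of 9 identifiers are paired with a symbol in the reference table, so the other pathway genes, cell type markers and Hras were not matched and are not analysed here. RefSeq (GRCr8) gave promoters for 6 members by symbol. Alternatives were the local background with normexp, no background correction, an offset of 16, median scaling, the authors' table, fold limits of 1.5 and 3 and other filters. The number of arrays limits the precision.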

Additional observations from a re-analysis of the deposited data

Results flagged for a closer look

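Among the members detected on all 4 arrays, 3 had zinc differences of opposite signs in cells with and without IPTG. The difference between the 2 was not tested. Mmp10 had a log2 zinc difference of 0.93 with IPTG and -0.084 without. Timp1 had 0.55 with IPTG and -0.13 without. Mmp13 had -0.023 with IPTG and 0.18 without, both within 0.22, the SD of a difference from repeat control spots. Of the 6 values, those of Mmp10 and Timp1 with IPTG exceeded that SD. In the authors' table the values with and without IPTG were 0.66 and -0.78 for Mmp10 and 0.27 and -0.37 for Timp1, while those of Mmp13 had the same sign, -0.18 and -0.03. With the local background they were 0.36 and -0.02 for Mmp10, 0.80 and 0.09 for Timp1 and 0.20 and 0.58 for Mmp13. The part of the array with IPTG and zinc, which stood apart in its spots without a probe, was not tested.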

How the results depend on the processing

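The count of members at least 2-fold apart with IPTG in both pairs was 4 under every background, offset and scaling setting, but with the local background Timp2 (lower) took the place of Timp1. Mmp10, Mmp3 and Mmp13 were higher in both pairs under all of them. A fold limit of 3 gave 3 members for the IPTG difference without zinc (5 at the limit of 2), and a limit of 1.5 gave 3 for the zinc difference with IPTG (0 at the limit of 2). No other count of members moved by over 1.5 times, and no difference past the limit changed sign. Over all probes, 387 were at least 2-fold apart with IPTG in both pairs, 641 with an offset of 16, 1278 in the authors' table, 1146 at a limit of 1.5 and 110 at a limit of 3. In the authors' table the median log2 IPTG difference was 0.29 with zinc and 0.34 without, and the median zinc difference -0.24 with IPTG and -0.20 without, so its folds stand against those shifts. Mmp9 and Mmp2 have no value there for differences with an unlisted array. Each condition had 1 array and the labels give no replicate numbers, so there were no replicates to pair. Arrays were instead compared within each zinc level. Dim signal limits Mmp9 and Mmp2, each at or below the limit on at least 1 array, and Timp3 on all 4.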
